A study of Mus musculus with 8 samples.

Results

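The interleukin 1 (IL-1) receptor cluster of mouse chromosome 1 holds 6 genes that lie one after the other on the plus strand: Il1r2, Il1r1, Il1rl2, Il1rl1, Il18r1 and Il18rap. Their peaks of methylated DNA (5mC, MeDIP-seq) and hydroxymethylated DNA (5hmC, hMeDIP-seq) in mouse lung were taken from 6 peak lists. A peak was a member's peak when the gene columns of a list named the gene at distance 0, and, apart from these, when they named it at up to 10000 bp. Of 329018 peaks in the 6 lists, 22 overlapped a member and 4 more lay outside all members within 10000 bp of one.

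Lung DNA came from F1 males of the C57BL/6J strain in 4 groups. F0-HDM_F1-HDM mice had dams exposed to house dust mite extract (HDM) and received HDM again as adults. F0-HDM_F1-Saline mice had HDM-exposed dams and received saline as adults, F0-Saline_F1-HDM mice received HDM as adults only, and F0-Saline_F1-Saline mice received saline at both stages. Dams were given 100 μg of HDM protein or the vehicle before mating and then 3 times a week in pregnancy and lactation, and all F1 males were sensitized at 6 weeks of age with HDM or saline and challenged on days 14, 18 and 21 before airway measurements on day 23. DNA was pooled over mice of 3 dams, and with 1 library for each group in each assay (8 libraries), no value below has a replicate and no difference between groups could be tested. Each assay gave 3 lists: F0-HDM_F1-HDM against F0-Saline_F1-HDM (here the double HDM list), F0-HDM_F1-Saline against F0-Saline_F1-Saline (the maternal HDM list) and F0-Saline_F1-HDM against F0-Saline_F1-Saline (the adult HDM list). The lists share libraries, so a place found in several of them was not observed several times independently. A peak has a shape score, a number that is higher the closer the read coverage fits the shape of a peak, and a p-value that is listed up to 0.1 and belongs to that score alone. It is no test between the groups. The lists hold no read counts, so the depth behind a peak is unknown, and they do not say how large a difference between the libraries was. Whole lung was sampled, and a shift in its cell types cannot be told apart from a change of DNA marks within cells.

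The members encode receptors of the IL-1 family of cytokines. IL1R1 is the signalling receptor for IL-1, IL1R2 is a decoy that binds IL-1 without signalling, and IL1RL2 is the receptor for the IL-36 cytokines. IL1RL1, also called ST2, is the receptor for IL-33, an alarmin released by airway epithelium that acts on type 2 innate lymphoid cells, mast cells and T helper cells. IL18R1 binds IL-18 and IL18RAP is the accessory subunit that allows it to signal. In humans the region that holds IL1RL1 and IL18R1 is one of the best known asthma loci.

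The sequences of 4 places are shown because they were found in all 3 lists of an assay or in both assays. A place is a stretch of overlapping peaks, and the 201 bp in its middle are printed from GRCm38 (mm10), plus strand, with the bases of each CpG, the pair that carries most 5mC and 5hmC in mammalian tissue, in capitals. The Il1rl1 window (chr1:40458165-40458365) lies in an intron and was the place with peaks in all 3 hMeDIP-seq lists. The Il1r1 window (chr1:40230853-40231053) and the Il18r1 window (chr1:40485531-40485731), also intronic, had peaks in all 3 MeDIP-seq lists. The Il18rap window (chr1:40547003-40547203) is the intronic place, of those assigned by the gene columns, where each assay listed a peak.
Il1rl1 intron 10: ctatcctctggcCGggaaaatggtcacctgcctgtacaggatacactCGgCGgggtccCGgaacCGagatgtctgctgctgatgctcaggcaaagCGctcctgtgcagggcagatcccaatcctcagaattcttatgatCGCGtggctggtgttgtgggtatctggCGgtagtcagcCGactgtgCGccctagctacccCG
Il1r1 intron 1: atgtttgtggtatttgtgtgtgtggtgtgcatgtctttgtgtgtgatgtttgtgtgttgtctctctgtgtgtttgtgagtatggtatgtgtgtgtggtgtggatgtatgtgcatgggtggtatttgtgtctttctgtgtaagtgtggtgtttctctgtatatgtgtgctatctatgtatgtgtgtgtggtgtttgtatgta
Il18r1 intron 6: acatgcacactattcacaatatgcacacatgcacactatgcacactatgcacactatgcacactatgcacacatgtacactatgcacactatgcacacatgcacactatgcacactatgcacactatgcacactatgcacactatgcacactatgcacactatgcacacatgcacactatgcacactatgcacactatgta
Il18rap intron 11: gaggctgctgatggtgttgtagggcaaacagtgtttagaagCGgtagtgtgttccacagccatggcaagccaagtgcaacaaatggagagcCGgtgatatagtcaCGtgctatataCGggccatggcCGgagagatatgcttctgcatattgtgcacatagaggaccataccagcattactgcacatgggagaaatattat
The Il1rl1 window held 12 CpG sites and the Il18rap window held 5. The windows of Il1r1 and Il18r1 held 0, and both read as simple repeats, of tg in Il1r1 and of a longer unit around cactatgca in Il18r1.

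Il1rl1 and Il18r1 each had overlapping peaks of 1 assay only, while Il1rl2 and Il18rap had peaks of both. By the gene columns, MeDIP-seq peaks overlapped Il18r1 7 times, Il1r1 3 times, Il1rl2 3 times and Il18rap once, while Il1rl1 had 0. hMeDIP-seq peaks overlapped Il1rl1 4 times, Il1rl2 3 times and Il18rap once, while Il1r1 and Il18r1 had 0. The 0 of Il1rl1 in MeDIP-seq and that of Il18r1 in hMeDIP-seq were also found by the GENCODE spans, while Il1r1 had 3 hMeDIP-seq peaks by span. RefSeq has a predicted transcript of Il1rl1 that starts earlier, at position 40404864, and by the RefSeq span Il1rl1 had 1 MeDIP-seq peak, at chr1:40404655-40405054 across that start, in the maternal HDM list (score 1.33, p of 0.0912, 6 CpG sites). Il1r2 was named at distance 0 in no list. The double HDM, maternal HDM and adult HDM lists gave 2, 6 and 6 overlapping peaks in MeDIP-seq and 3, 2 and 3 in hMeDIP-seq. These lists hold 13338, 88438 and 63967 peaks in MeDIP-seq and 89177, 38333 and 35765 in hMeDIP-seq. The counts are therefore not compared between lists. The 22 peaks made up 11 places, and 2 further places lay outside the genes. Of these 13 places, 8 were in MeDIP-seq lists only, 4 in hMeDIP-seq lists only and 1 in both.

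**Figure D1:**
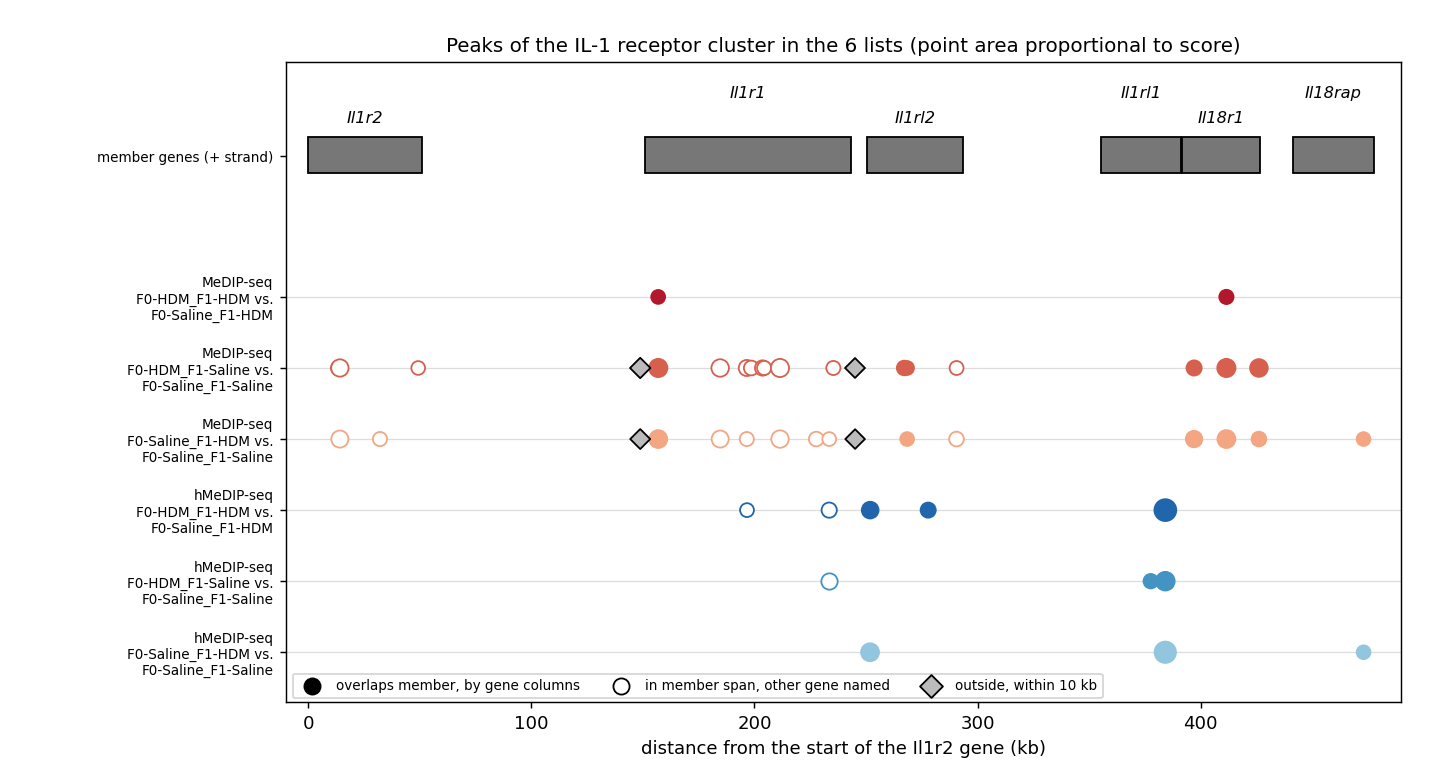
Position of the peaks along the cluster, in kb from the start of Il1r2 (x axis), with the member genes on top and 1 row per peak list. Filled circles are the 22 peaks assigned to a member by the gene columns, open circles are 22 more that lie in a member's annotated span while another gene is named, grey diamonds are the 4 peaks outside the genes, and point area is proportional to the score. hMeDIP-seq rows (blue) have no point in Il18r1, and MeDIP-seq rows (red) have none in Il1rl1 as GENCODE bounds it.

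These counts were read against all 36297 genes named in the lists. In MeDIP-seq the double HDM list had a peak in 2 of the 6 members, against 7.67% of all genes, the maternal HDM list in 3 members against 34.4%, and the adult HDM list in 4 members against 27.9%. In hMeDIP-seq the double HDM list had a peak in 2 members against 39.3% of all genes, the maternal HDM list in 1 against 22.2%, and the adult HDM list in 3 against 24.3%. The members are long, with a median of 39649 bp against 6580 bp over all genes with a known span. Among the 4027 genes between the shortest and the longest member (35303 to 92178 bp), 17.9%, 75.4% and 64.9% had a peak in the double, maternal and adult HDM lists of MeDIP-seq, and 74.3%, 45.9% and 45.9% in those of hMeDIP-seq. Beside genes of like length, the members' share was above the background in the MeDIP-seq double HDM list (33.3%, 2 genes) and below it in the MeDIP-seq maternal HDM list (50%) and in the hMeDIP-seq double HDM list (33.3%) and maternal HDM list (16.7%). In the adult HDM lists the members' share was slightly above it, 66.7% against 64.9% in MeDIP-seq and 50% against 45.9% in hMeDIP-seq. With 6 members, 1 gene moves a share by 16.7 percentage points, and nothing particular to the cluster is read from these shares.

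**Figure D2:**
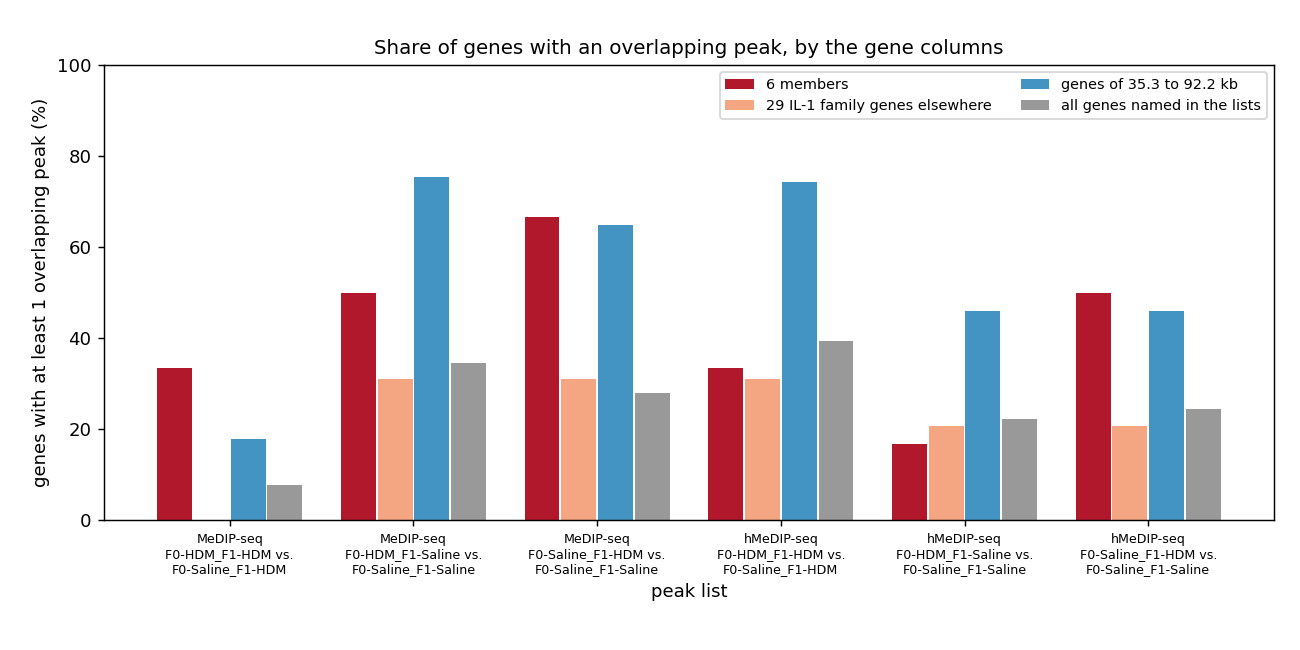
Share of genes with at least 1 overlapping peak (y axis, %) in each list, by the gene columns, for the 6 members, the 29 IL-1 family genes outside the cluster, the 4027 genes as long as the members, and all 36297 genes named in the lists. The 29 include Il1a, Il1b, Il1rn, Myd88 and Irak1, which the gene columns never name, so their bars are set low. The members reach 66.7% in the MeDIP-seq adult HDM list, close to the 64.9% of genes of like length, and 16.7% in the hMeDIP-seq maternal HDM list.

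The strongest peaks of the cluster were hMeDIP-seq peaks in Il1rl1, the IL-33 receptor gene. They lay in intron 10, the last intron of the principal transcript (the one with the longest coding sequence), at chr1:40457863-40458621. The score was 3.25 in the double HDM list, 2.38 in the maternal HDM list and 3.10 in the adult HDM list, and no MeDIP-seq list had a peak there. The p-values of the scores were 0.000572, 0.00876 and 0.000952. These 3 peaks were the only ones of the 22 with a p of 0.01 or less, and the score placed them within the top 5.52%, 12.8% and 12.8% of their lists. Such a p was common in hMeDIP-seq: 23.9%, 14.1% and 28.7% of all peaks in the double, maternal and adult HDM lists had it. In MeDIP-seq 15.0%, 8.43% and 9.53% of all peaks did. Against all peaks of an hMeDIP-seq list, 24.4%, 56% and 59.2% of the double, maternal and adult HDM lists were shared with both other lists, so presence in all 3 is common in that assay. The lower score in the maternal HDM list was also common: among peaks shared by all 3 lists, 86% scored lower there than in the double HDM list, with medians of 1.81 and 2.56. The order seen at Il1rl1, double above adult above maternal HDM, was found at 32.2% of the 21716 shared peaks of the double HDM list, and the order double above maternal above adult HDM at 30.9%.

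The intron 10 place of Il1rl1 lay in CpG-rich, repeated sequence. It held 31 CpG sites over its full width in the adult HDM list, 22 in the maternal HDM list and 19 in the double HDM list, or 4.08, 5.02 and 5.23 sites per 100 bp. Repeat masking in the reference covered 92.2% of the widest of these peaks and 100% of both others. Of the 51-bp windows in the whole place, 36.1% had another exact copy in GRCm38, and in the peaks of the double and maternal HDM lists the share was 56.2% and 49.7%. The reads of the study were 51 bp long and paired, so a mate in unique sequence can place a read from such a window, and these shares count single windows only. The part of the copies in the score was not tested. The same peaks lay 6930 to 7105 bp upstream of Il18r1, and therefore also count as hMeDIP-seq peaks outside but near that gene.

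A second hMeDIP-seq peak of Il1rl1, at chr1:40451513-40451944, covered all of exon 10, with coding sequence, and intron on both sides of it. It was listed in the maternal HDM list alone, with a score of 1.43 and a p of 0.0765, at rank 75.4% from the top of that list. It held 11 CpG sites, 2.55 per 100 bp, and had no multi-copy 51-bp window.

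Il1rl2, the IL-36 receptor gene, had peaks of both assays at different places. Its strongest peaks were hMeDIP-seq peaks near the start of the gene, at chr1:40325584-40326193, in intron 1 of the principal transcript and across the first exon of a shorter one, whose start the wider of the peaks covered. The score was 1.91 in the double HDM list and 2.20 in the adult HDM list (p of 0.0279 and 0.0140), and the maternal HDM list had no peak there. Both lists search a library of mice that received HDM as adults. The control of the double HDM list, F0-Saline_F1-HDM, also received it and is the library searched in the adult HDM list. A link of this pattern to adult HDM was not tested. Absence from a list was not tested, since the lists hold no values below the p limit. The place was rich in CpG, with 19 sites in the narrower peak and 30 in the wider one (5.56 and 4.92 per 100 bp), carried no masked repeat and had no multi-copy window. A weaker hMeDIP-seq peak, with a score of 1.56 in the double HDM list alone, covered coding sequence of exon 8 at chr1:40351775-40352125.

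MeDIP-seq peaks of Il1rl2 lay in intron 4 and were weak. At chr1:40342314-40342687 the scores were 1.30 in the maternal HDM list and 1.30 in the adult HDM list, close to the lowest score listed. At chr1:40340989-40341375 the maternal HDM list had a peak with a score of 1.46, with 0 CpG sites and 94.1% masked sequence. Neither place had a peak in the MeDIP-seq double HDM list, the shortest list of that assay.

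Il1r1, the IL-1 signalling receptor gene, had MeDIP-seq peaks in intron 1 at chr1:40230662-40231178 in all 3 lists. The score was 1.31 in the double HDM list, 2.27 in the maternal HDM list and 2.18 in the adult HDM list. Il18r1, the IL-18 receptor gene, had the same pattern in intron 6 at chr1:40485414-40485849, with scores of 1.39, 2.26 and 2.19. In both genes the score was lowest in the double HDM list, as it was over the MeDIP-seq peaks shared by all 3 lists: 89.8% of those scored lower in the double HDM list than in the maternal HDM list, with medians of 1.54 and 2.21. Of all MeDIP-seq peaks, 91.8% of the double HDM list, 13.8% of the maternal HDM list and 19.1% of the adult HDM list were shared with both other lists. Both member peaks of the double HDM list were of that kind.

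The Il1r1 and Il18r1 peaks stood on sequence with few or no CpG. At Il1r1 the peaks of the maternal and adult HDM lists held 0 CpG sites and that of the double HDM list held 3, in sequence that was at least 94.0% masked. At Il18r1 the peaks of the maternal and adult HDM lists held 0 and that of the double HDM list held 1. When a peak was shifted along itself by 2 to 50 bp, the best shift matched 59.7% of bases at 2 bp for Il1r1 and 63.5% at 9 bp for Il18r1 in the maternal HDM list. The median best match over the 6326 peaks of chromosome 1 in that list was 37.4%, and 10% of them exceeded 62.0%. Of the 14 MeDIP-seq peaks in members, 5 held 0 CpG sites. They were 0 of 2, 3 of 6 and 2 of 6 peaks in the double, maternal and adult HDM lists. Of all peaks of these lists, 14.3%, 9.12% and 11.1% held 0. The Il1r1 and Il18r1 places were counted in both the maternal and adult HDM lists, so the 5 peaks are not separate places. With the MeDIP-seq peaks found by gene span alone, 7 of 33 held 0 (21.2%, against 35.7% by the gene columns). These shares also count a place once for each list that holds it. The part of repeat sequence in these peaks was not tested.

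**Figure D3:**
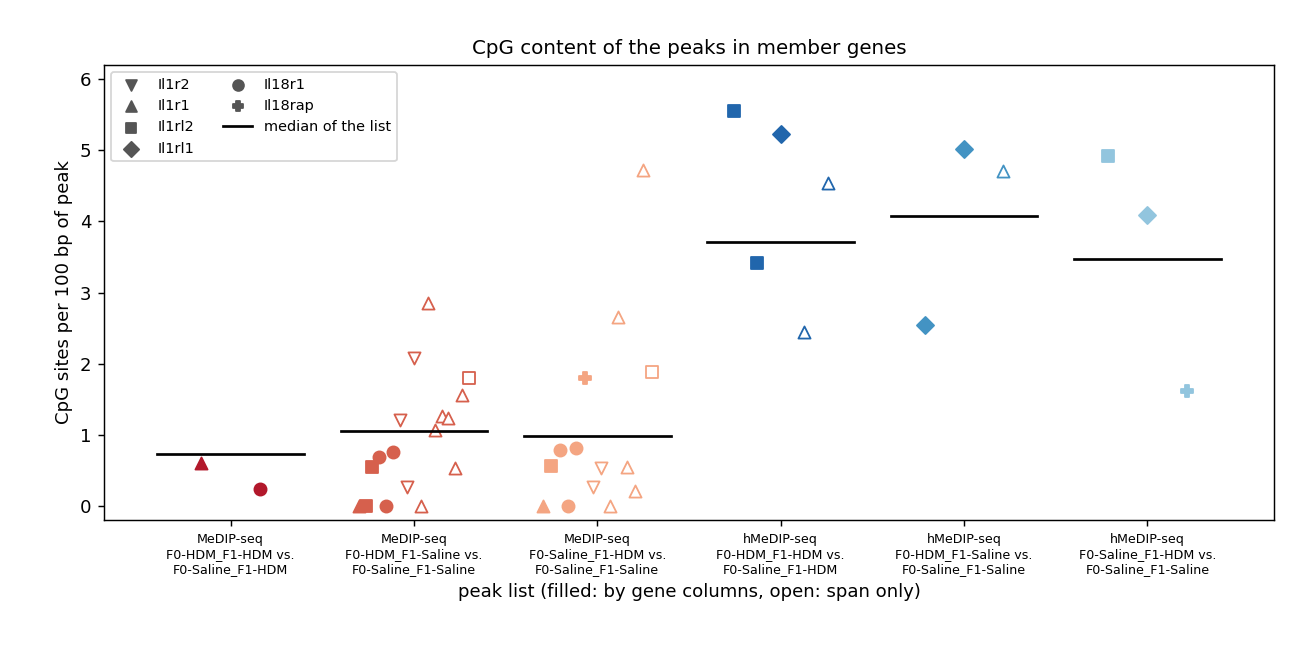
CpG sites per 100 bp of each peak in a member (y axis), by list (x axis), with the member given by the symbol and the median of all peaks of the list as a line. Filled symbols are peaks assigned by the gene columns and open symbols those found by gene span. All 14 filled MeDIP-seq points but that of Il18rap lie below the median of their list, whereas 8 of 11 open points of the maternal HDM list and 3 of 8 of the adult HDM list lie above it, and the hMeDIP-seq points of Il1rl1 intron 10 and of Il1rl2 intron 1 lie above it.

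Il18r1 had 2 further MeDIP-seq places, each in the maternal and the adult HDM lists. Both were absent from the double HDM list, the shortest list of that assay. In intron 1, at chr1:40470931-40471366, the scores were 1.57 and 1.84, with 3 CpG sites in each peak. In exon 11, in the 3′ UTR, at chr1:40500013-40500410, they were 2.14 and 1.48. The order of the 2 lists was thus opposite at these places, and neither difference has an error by which to judge it.

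Il18rap, the accessory subunit of the IL-18 receptor, had the weakest peaks and the only place of the 13 where each assay listed one. In intron 11, at chr1:40546754-40547499, the adult HDM lists had a MeDIP-seq peak with a score of 1.29 (p of 0.0990) and an hMeDIP-seq peak with a score of 1.29 (p of 0.0993). Both stood at the edge of listing, at rank 98.3% and 99.5% from the top of their lists. The hMeDIP-seq peak was 746 bp long and held 12 CpG sites, and the MeDIP-seq peak inside it held 7. Among all peaks of these lists, 14.8% in MeDIP-seq and 20.1% in hMeDIP-seq shared a base with a peak of the other assay.

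**Figure D4:**
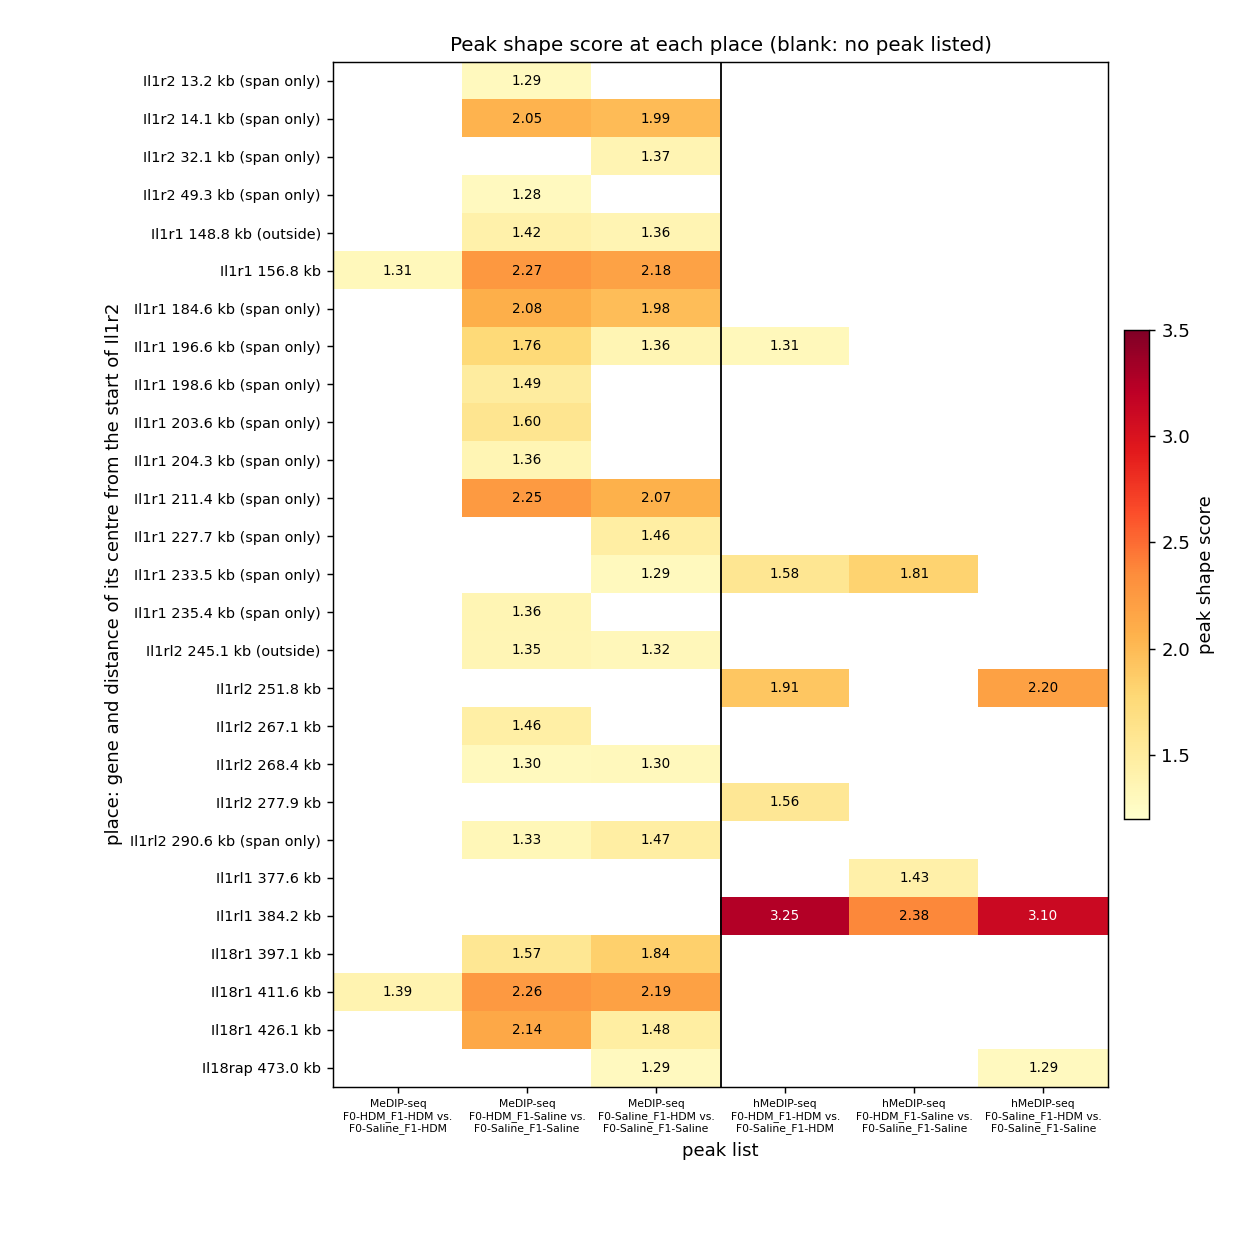
Peak shape score (colour and number) at each place (rows, by gene and kb from the start of Il1r2) in each list (columns, MeDIP-seq left of the line and hMeDIP-seq right of it). Blank cells have no listed peak, and rows marked span only are places where the gene columns name another gene. Scores at Il1rl1 384.2 kb reach 3.25, while no MeDIP-seq score exceeds 2.27.

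Outside the genes, MeDIP-seq peaks lay 2027 and 2034 bp before Il1r1 (chr1:40222668-40223052, scores of 1.42 and 1.36) and 5260 and 5229 bp before Il1rl2 (chr1:40318947-40319380, scores of 1.35 and 1.32), in the maternal and adult HDM lists. The first of them falls inside Il1r1 in RefSeq, which starts the gene at position 40222480, earlier than GENCODE does. The second lies closer to the end of Il1r1 (position 40317257 in GENCODE) than to Il1rl2, but the gene columns name Gm38070 on its 5′ side. Counting each member on its own by the gene columns, 0, 2 and 2 members had a peak outside but within 10000 bp in the double, maternal and adult HDM lists of MeDIP-seq. Of all genes, 6.73%, 40% and 30.9% did. In hMeDIP-seq 1 member did in each list, Il18r1 with the peak of Il1rl1 intron 10, against 36.9%, 18.5% and 18.1% of all genes. None of the 10 promoter windows taken for the members from RefSeq, 250 bp before to 50 bp after a start, was overlapped by a peak of any list. The share of all promoters with a peak was not computed, so nothing particular to the cluster is read from this. These windows do not include the predicted early start of Il1rl1 or the inner start of Il1rl2, which peaks covered as given above. They also leave out the earliest RefSeq starts of Il1r1 (position 40222480) and Il1r2 (position 40084692). The peaks at chr1:40222668-40223052 lay just after that start of Il1r1 and did not cover it. Counted from the 10 windows alone, the nearest peaks were 946 bp away at Il1rl2 and 966 bp at Il1r2.

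The gene columns name 1 gene per side and so passed over peaks inside members. By the GENCODE vM21 spans, 44 peaks lay in members, 22 of them with another gene named. In each of those 22 the gene named on the 5′ side was a gene model lying within the member: Gm16894 or Gm37347 in Il1r2, Gm38070 in Il1r1 and Gm17970 in Il1rl2. Of the 22, 19 were MeDIP-seq and 3 hMeDIP-seq peaks. By span the double, maternal and adult HDM lists had 2, 17 and 14 MeDIP-seq peaks in 2, 4 and 5 members, and 5, 3 and 3 hMeDIP-seq peaks in 3, 2 and 3 members. Over the 33655 genes with 1 known span, 8.97%, 38% and 31.2% had a peak in the MeDIP-seq lists and 42.8%, 25.2% and 27.4% in the hMeDIP-seq lists. Among genes of the members' length the shares were 19.8%, 81.0% and 71.3% in MeDIP-seq and 79.3%, 50.7% and 50.7% in hMeDIP-seq.

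The decoy receptor gene Il1r2, without a peak by the gene columns, held 5 MeDIP-seq peaks and 0 hMeDIP-seq peaks by span. At chr1:40088028-40088423, in intron 1, the score was 2.05 in the maternal HDM list and 1.99 in the adult HDM list, each peak with 1 CpG site. The other 3 Il1r2 peaks scored at most 1.37, and 1 of them covered coding sequence of exon 8. The nearest hMeDIP-seq peaks lay 18265 to 18353 bp before the gene, with scores of 3.24, 1.39 and 1.45 in the double, maternal and adult HDM lists.

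Il1r1 held 18 peaks by span, in place of 3 by the gene columns. In MeDIP-seq, intron 2 had scores of 2.25 and 2.07 at chr1:40285323-40285713, and intron 1 had 2.08 and 1.98 at chr1:40258512-40258897, in the maternal and adult HDM lists. Part of both was multi-copy sequence, 27.5% and 38.6% of 51-bp windows in the maternal HDM list. At 2 places Il1r1 had peaks of both assays. In intron 1, at chr1:40270437-40270892, unmasked sequence with 8 to 11 CpG sites per peak, MeDIP-seq scores were 1.76 in the maternal HDM list and 1.36 in the adult HDM list, and the hMeDIP-seq score was 1.31 in the double HDM list. In intron 8, at chr1:40307327-40307781, hMeDIP-seq scores were 1.58 in the double HDM list and 1.81 in the maternal HDM list, and the MeDIP-seq score was 1.29 in the adult HDM list. That place was fully masked, and at least 89.4% of its 51-bp windows had other copies in the genome. Il1rl2 held 1 more MeDIP-seq place by span, in intron 10, with scores of 1.33 and 1.47 in the maternal and adult HDM lists.

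The cluster as a whole, 478 kb from the start of Il1r2 to the end of Il18rap, held 2, 28 and 23 MeDIP-seq peaks and 8, 5 and 5 hMeDIP-seq peaks in the double, maternal and adult HDM lists. In MeDIP-seq this was 0.419 peaks per 100 kb (95% exact Poisson interval 0.0507 to 1.51) against 0.541 on the rest of chromosome 1 in the double HDM list. It was 5.86 (3.90 to 8.47) against 3.29 in the maternal HDM list and 4.82 (3.05 to 7.23) against 2.43 in the adult HDM list. In hMeDIP-seq it was 1.67 (0.723 to 3.30) against 3.07, 1.05 (0.340 to 2.44) against 1.39, and 1.05 (0.340 to 2.44) against 1.22. The intervals cover counting error only and take peaks as independent. The 2 MeDIP-seq lists with F0-Saline_F1-Saline as control thus listed more peaks per length in the cluster than elsewhere on the chromosome, and the hMeDIP-seq double HDM list had a lower value whose interval reaches past that of the chromosome. CpG content was 0.893 per 100 bp in the cluster against 0.770 on the rest of the chromosome. Per 1000 CpG sites the hMeDIP-seq double HDM list had 1.88 peaks (0.810 to 3.70) against 3.995, so that on this scale the interval lay below the chromosome's value. The hMeDIP-seq maternal and adult HDM lists had 1.17 against 1.81 and 1.17 against 1.59, within their intervals. In MeDIP-seq the double, maternal and adult HDM lists had 0.469 (0.0568 to 1.69) against 0.703, 6.57 (4.36 to 9.49) against 4.27, and 5.40 (3.42 to 8.10) against 3.16.

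On either side of the cluster, Map4k4, a kinase gene, had 0, 17 and 10 MeDIP-seq peaks and 14, 4 and 4 hMeDIP-seq peaks in the double, maternal and adult HDM lists. Slc9a4 and Slc9a2, which encode sodium-proton exchangers, held by span 1, 3 and 4 and 2, 6 and 4 MeDIP-seq peaks, and 1, 0 and 1 and 10, 4 and 1 hMeDIP-seq peaks. Map4k4 thus had 13.6 and 7.97 MeDIP-seq peaks per 100 kb in the maternal and adult HDM lists, Slc9a4 5.92 and 7.90, and Slc9a2 6.76 and 4.51, against 5.86 and 4.82 in the cluster, and the density was not particular to the cluster. In the hMeDIP-seq double HDM list Map4k4, Slc9a4 and Slc9a2 had 11.2, 1.97 and 11.3 peaks per 100 kb, against 1.67 in the cluster. The strongest score in Map4k4 was 2.84, in hMeDIP-seq of the double HDM list, where the peak before Il1r2 scored 3.24 and that of Il1rl1 3.25.

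Of 29 genes of the IL-1 family pathway outside the cluster, the gene columns gave 0, 9 and 9 with a MeDIP-seq peak and 9, 6 and 6 with an hMeDIP-seq peak in the double, maternal and adult HDM lists, against the 7.67%, 34.4% and 27.9% and the 39.3%, 22.2% and 24.3% of all genes given above (here 0%, 31.0% and 31.0%, and 31.0%, 20.7% and 20.7%). Il1a, Il1b, Il1rn, Myd88 and Irak1 are named in no gene column and could be counted by span alone, where Myd88 had an hMeDIP-seq peak in the double HDM list. These genes stay in the 29, whereas the background holds named genes only. The pathway shares other than 0% are therefore set low beside it, and whether they lie above or below it is not read. By span the counts were 0, 10 and 9, and 12, 8 and 8. Among the 10 ligands and ligand antagonists, no list had a MeDIP-seq peak. Il36g, which encodes IL-36 gamma, a ligand of the Il1rl2 product, had hMeDIP-seq peaks with scores of 1.55 in the double HDM list and 1.86 in the maternal HDM list. Il33, the ligand of the Il1rl1 product, had no peak in any list by either count, and Il18 had 1 hMeDIP-seq peak in each list by span alone.

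Among co-receptors, Il1rapl1, a relative of the shared co-receptor gene Il1rap that is known from neurons, had the highest scores of the pathway. Its top hMeDIP-seq scores were 5.22, 3.52 and 4.14 in the double, maternal and adult HDM lists, and its top MeDIP-seq scores were 2.30 and 1.68 in the maternal and adult HDM lists. This gene is long (chrX:86740870-88115645) and had 13, 12 and 7 hMeDIP-seq peaks, so a maximum was taken over many. The scores of 5.22 and 3.52 and both MeDIP-seq scores came from 1 place, near chrX:87238164-87238585, with peaks in 4 other lists. The score of 4.14 came from another place, chrX:87083888-87084528. Il1rapl2, another relative, had 0 hMeDIP-seq peaks by the gene columns and 13, 11 and 7 by span. Il1rap, the accessory protein of the IL-1, IL-33 and IL-36 receptors, had top MeDIP-seq scores of 2.02 and 1.49 in the maternal and adult HDM lists, and top hMeDIP-seq scores of 2.01, 1.39 and 1.45 in the double, maternal and adult HDM lists. Of the 11 signalling genes, 5 had a MeDIP-seq peak in the maternal and in the adult HDM list, against 34.4% and 27.9% of all genes. The gene columns never name Myd88 and Irak1 of the 11, and this share is not read against that background. Irak4, the kinase that starts signalling at the adaptor MyD88, had top hMeDIP-seq scores of 2.92, 1.81 and 2.17 in the double, maternal and adult HDM lists, and top MeDIP-seq scores of 1.97 and 1.94 in the maternal and adult HDM lists. Irak2, a kinase of the same complex, scored 2.17 and 2.02 in MeDIP-seq of the maternal and adult HDM lists and 2.51 in hMeDIP-seq of the double HDM list. Irak3, an inhibitor of that complex, scored 1.70 and 2.04 in MeDIP-seq of the maternal and adult HDM lists, and 1.65, 1.89 and 1.68 in hMeDIP-seq of the double, maternal and adult HDM lists. Tollip, another inhibitor, scored 1.68 and 1.78 in MeDIP-seq of the maternal and adult HDM lists. Tab1, which binds the kinase TAK1, scored 2.28 and 2.05 in hMeDIP-seq of the double and adult HDM lists. Nlrp3, the inflammasome sensor that leads to release of IL-1 beta and IL-18, scored 2.33, 1.81 and 1.47 in hMeDIP-seq of the double, maternal and adult HDM lists and was the only 1 of the 3 inflammasome genes with a peak.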

How the data were processed

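Lung DNA of 4 groups was captured with MethylCap (MeDIP-seq) or hMethylCap (hMeDIP-seq) kits after shearing to about 200 bp. Bowtie 0.12.9, CASAVA 1.8.0 and FastQC stand in the submitters' processing notes, and peaks were called in CLC Genomics Workbench according to the study's methods. The deposited files list each peak's position on GRCm38 (mm10), length, nearest genes, shape score and p-value. The score was computed by the authors' peak caller from read coverage of the first-named library, with the second-named taken as control. The deposited p-value is the normal upper tail at that score, checked here, and ends at 0.1. No reads were analysed here and depth per peak is unknown.

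Members were found in the gene columns, and distances to members equalled GENCODE vM21 spans within 2 bp in 69 of 69 cases. Exons came from the principal GENCODE vM21 transcript of each gene, promoters and Il1r1 starts from RefSeq (GRCm38.p6), and symbols of the IL-36 genes were matched to the older ones in the files. Peaks counted as shared when at least 1 bp overlapped, and the overlap function was tested on simulated data. Named are all members, the strongest peak of each member in each list, up to 4 pathway genes per list with the lowest p, and the flanking genes. The members and lists were chosen with earlier results of these data known. RefSeq spans, spans for pathway and flanking genes, the shift match and the scores of shared peaks were added after the data were seen. Alternatives tried were gene spans, a p of at most 0.01, 5000 bp, an overlap of 50% and no recurrent places. Python 3.11.15, numpy 2.4.6, pandas 2.3.3, numba 0.67.0 and matplotlib 3.10.9 were used.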

Additional observations from a re-analysis of the deposited data

How the results depend on the processing

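With a p of 0.01 or less, the peaks overlapping a member numbered 0, 0 and 0 in the double, maternal and adult HDM lists of MeDIP-seq and 1, 1 and 1 in those of hMeDIP-seq, which were the peaks of Il1rl1 intron 10. Of all peaks, 15.0%, 8.43% and 9.53% of those MeDIP-seq lists and 23.9%, 14.1% and 28.7% of those hMeDIP-seq lists had such a p. Members with a peak then numbered 0, 0 and 0 in MeDIP-seq and 1, 1 and 1 in hMeDIP-seq, and peaks outside but near a member 0 in each MeDIP-seq list. By gene span the overlapping peaks numbered 17 and 14 in the maternal and adult HDM lists of MeDIP-seq and 5 in the double HDM list of hMeDIP-seq. By the gene columns, 1 peak lay outside but within 5000 bp of a member in the maternal and 1 in the adult HDM list of MeDIP-seq. The place before Il1rl2 was left out there, although by position it lies within that distance of the end of Il1r1. An overlap of 50% of the shorter peak changed none of the 6 counts it was run on. Leaving out recurrent places, those with peaks in at least 3 of the 5 other lists, changed none of 12 counts. It could not, because no member peak lay in a recurrent place. Chosen after seeing the data, RefSeq spans gave 19 and 15 in those MeDIP-seq lists and 5 in that hMeDIP-seq list. Also chosen after seeing the data, spans kept the number of pathway genes with a peak within 1.5 times in each list, but ligands with an hMeDIP-seq peak numbered 2, 2 and 1 by span and 1, 1 and 0 by the gene columns. No paired analysis was possible because each group had 1 library per assay. With 1 pooled library per group, no read counts and no values below the p limit, neither the direction nor the size of a difference, nor the absence of a mark, could be measured.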
